A study of Homo sapiens with 45 samples.

Results

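EW3 is an Ewing sarcoma cell line in which the transcript of ERG was present and that of FLI1 was nearly absent, the reverse of the other Ewing lines measured with it. The 3 EW3 libraries, of 45 in the series, were set against the 18 libraries of 6 other Ewing sarcoma lines, A673, EW24, MHHES1, RDES, SKES1 and TC71, with 3 libraries per line. All 21 libraries came from parental cells, with no hairpin construct and no doxycycline named in their labels. A further 18 parental libraries from 6 osteosarcoma lines (U2OS, SAOS2, MG63, KHOS, HOS-MNNG and G292) gave levels in another bone tumour, and 6 libraries of A673 cells carrying the hairpin sh908, with or without doxycycline, were not used. The labels name neither the fusion carried by any line nor separate cultures for the 3 libraries of a line. The spread between them may thus be technical. EW3 was the line in these data that was picked for ERG, so a difference between EW3 and the other lines cannot be told apart from a difference between 1 cell line and 6 others. A line was 1 unit, the mean or the sum of its 3 libraries. A gene was counted as highest in EW3 when each of the 3 EW3 libraries lay above the mean of every other Ewing line, and as lowest when each lay below all of these means.

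Ewing sarcoma arises in the bones and soft parts of children and young adults. It is driven by a fusion of EWSR1, which codes for an RNA-binding protein, with a gene of the ETS family of transcription factors, most often FLI1 and less often its close relative ERG. The fusion protein joins the activating N-terminal part of EWSR1 to the DNA-binding ETS domain, binds GGAA repeats, turns on genes such as NR0B1, NKX2-2 and PRKCB and turns down genes of mesenchymal cells. The fusion transcript holds the 3′ part of the ETS gene, so reads from that part are counted under FLI1 or ERG, and those from its 5′ part under EWSR1. Where a fusion is present, shares between the transcripts of these genes are thus uncertain. FLI1 and ERG are themselves expressed in blood vessels and blood cells.

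Because ERG and FLI1 are so alike, the stretch where they are most alike is shown. Among all windows of 120 bases in the 2 coding sequences compared, the pair below, from the ETS domain region, had 13 mismatches, which are in capitals. The ERG stretch lies on the minus strand of chromosome 21 (GRCh38, 38383757 to 38383876) at coding positions 619 to 738, and the FLI1 stretch on the plus strand of chromosome 11 (128810506 to 128810625) at coding positions 877 to 996.
ERG: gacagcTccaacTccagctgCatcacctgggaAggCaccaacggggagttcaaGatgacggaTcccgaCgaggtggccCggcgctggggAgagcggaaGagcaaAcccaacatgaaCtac
FLI1: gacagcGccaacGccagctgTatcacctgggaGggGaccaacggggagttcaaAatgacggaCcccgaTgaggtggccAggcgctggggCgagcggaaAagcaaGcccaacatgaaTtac
Over 1051 aligned coding positions 75.5% were identical. The annotated transcripts of ERG held 7708 different runs of 31 bases and those of FLI1 held 8226, and 0 runs were shared between them.

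Sequencing depth was 26998908 to 42373210 estimated counts in the EW3 libraries and 23132161 to 51413254 in the other Ewing libraries, and 15502 to 15696 genes reached 1 TPM (transcript abundance scaled by transcript length and library size) in EW3 against 13097 to 15744. EW3 replicate 1 stood apart from replicates 2 and 3. Over 11212 genes its log2(TPM + 1) values correlated with replicates 2 and 3 at r = 0.963 and 0.962, against 0.986 between replicates 2 and 3. In TC71, replicate 3 stood apart in the same way (0.953 and 0.948, against 0.987). Summed over 25 genes of the amino acid stress response, EW3 replicate 1 held 8962 TPM where replicates 2 and 3 held 2867 and 2750. Over 40 S phase genes it held 2847 TPM against 4788 and 4694. EW3 libraries correlated with those of the other 6 lines at a median r of 0.925, and libraries of those 6 lines with each other at 0.939. These values run across 25644 genes, which are not independent replicates.

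ERG, a transcription factor of the ETS family (chromosome 21, 38367261 to 38661783), was at 31.8, 36.6 and 35.9 TPM in the 3 EW3 libraries. In the 18 other Ewing libraries the lowest and the median value were 0.00 TPM and the highest was 0.0527 TPM. All 3 EW3 libraries thus lay far above every other Ewing library, and 7762 counts stood against 4 counts in the 18 libraries together. The fitted log2 difference was 12.98 (SE 1.09). Since EW3 was chosen for its ERG and FLI1 levels, both genes are described here with no test. Of the 10 ERG transcripts listed, NM_001243429.1 took 94.5% ± 4.29 of the ERG level in EW3 (SD, n = 3), at 32.8 ± 0.996 TPM. In the osteosarcoma lines ERG was between 0.154 TPM and 4.84 TPM, the highest value being that of MG63, where another transcript, NM_001243428.1, took 83.1% ± 10.1. EW3 had 0.00 TPM of that transcript.

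FLI1 (chromosome 11, 128685132 to 128813267) was at 3.18, 1.51 and 1.56 TPM in EW3, against a lowest value of 25.6, a median of 36.4 and a highest value of 46.5 TPM in the other 18 libraries. The groups did not overlap, and replicate 1 was the highest of the 3 EW3 libraries. The fitted log2 difference was -4.14 (SE 0.519), and -4.64 without EW3 replicate 1. The transcript that carried the FLI1 level differed too. In EW3 it was NM_002017.5, with 82.7% ± 27.8, whereas NM_001271012.2 took between 67.9% ± 24.8 (RDES) and 100% (TC71) in the other Ewing lines. Among osteosarcoma lines, KHOS had 27.7 TPM of FLI1, of which NM_002017.5 took 98% ± 1.24. EWSR1 lay within the range of the other lines, at 296.4, 277.1 and 279.1 TPM in EW3 and between 192.3 and 340.6 TPM elsewhere (median 276.7).

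PRKCB codes for protein kinase C beta, a signalling kinase and a known target of the fusion. Its 3 EW3 values were 246.2, 228.4 and 224.0 TPM, and the other 18 libraries ran from 51.1 to 119.5 TPM with a median of 82.5. EW3 was above every other library, and TC71 came next with a line mean of 102.1 ± 29.7 TPM (SD, n = 3). SKES1 (98.9 ± 8.43), EW24 (85.3 ± 3.27), RDES (84.2 ± 7.92) and MHHES1 (72.5 ± 8.52) lay within 1 SD of TC71, and A673 (55.3 ± 7.07) was lowest. The log2 difference between EW3 and the 6 lines was 1.11 (SE 0.361) and did not pass (edgeR adjusted p = 0.446). A fit with single libraries as units did call PRKCB, but that fit called 6983 genes higher and holds only the spread between libraries. The osteosarcoma lines reached at most 0.132 TPM.

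**Figure D1:**
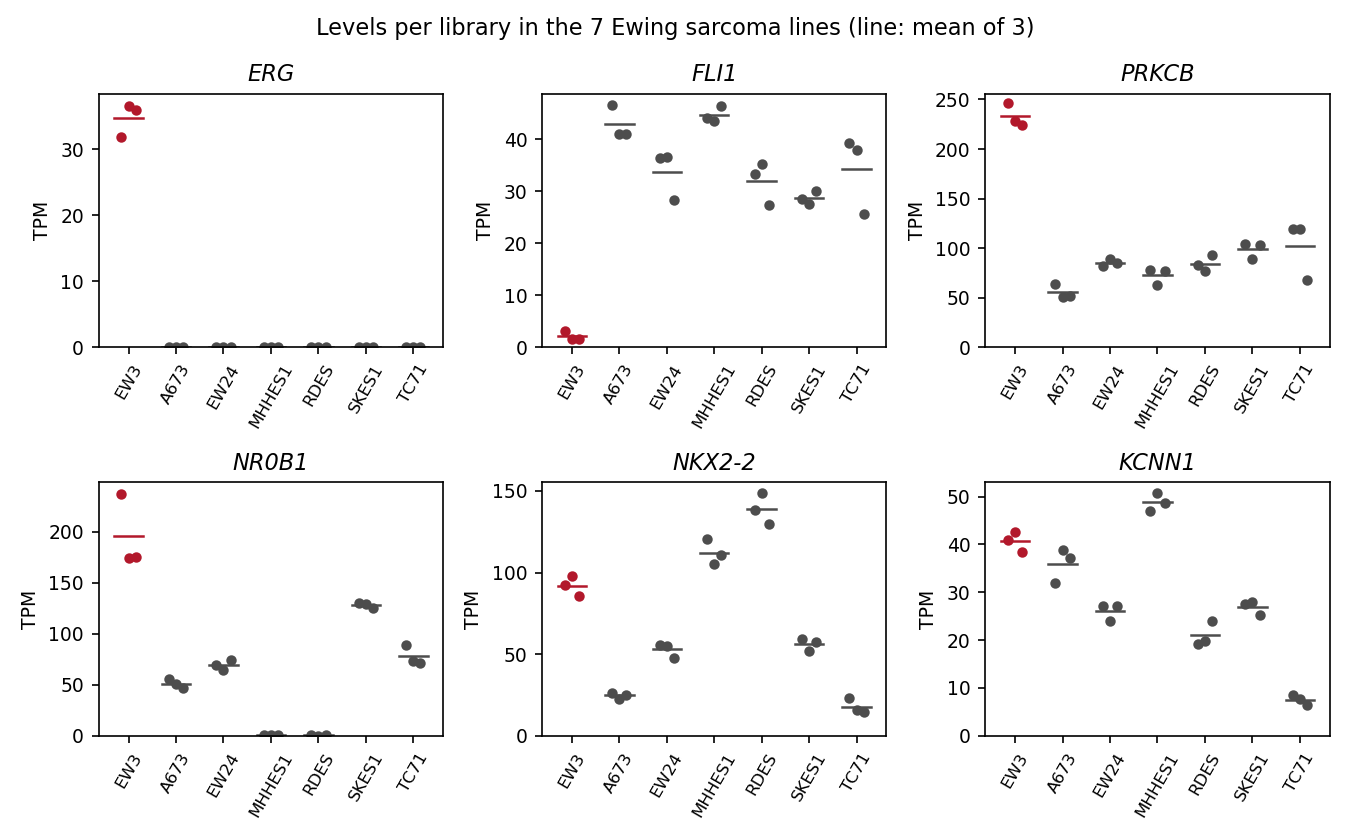
TPM of 6 genes (one panel each) in each library of the 7 Ewing lines. Points are libraries, bars are line means, and EW3 is in red. ERG was seen in EW3, FLI1 in the 6 other lines, and PRKCB and NR0B1 were highest in EW3, whereas NKX2-2 and KCNN1 were not.

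Of the Ewing markers, CD99, a surface protein used in diagnosis, was at 1319, 1394 and 1283 TPM in EW3 and between 276.7 and 1886 TPM in the other libraries, so the groups overlapped. NKX2-2, a homeobox gene, was at 92.4, 97.8 and 85.6 TPM, below the means of MHHES1 (112.1) and RDES (138.8) and above the other 4. STEAP1, a membrane protein, was at 152.2, 149.4 and 141.7 TPM, inside the range of 80.9 to 373.5. KCNN1 codes for SK1, a calcium-activated potassium channel. Its levels were 41, 42.7 and 38.4 TPM in EW3, which placed the line second after MHHES1 (48.9 ± 1.92) and ahead of A673 (36 ± 3.61), SKES1 (27 ± 1.42), EW24 (26.1 ± 1.81), RDES (21 ± 2.64) and TC71 (7.58 ± 1.06). EW3 and MHHES1 differed by more than the spread between libraries. SKES1 and EW24 did not. The osteosarcoma lines were at 4.36 TPM or less.

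Genes known to be activated by the fusion were present in EW3. Of 41 such genes, 9 were highest in EW3, 3 were lowest and 29 lay in between. In all genes tested 15.2% were highest and 5.65% lowest. None of the 41 was called at an adjusted p under 0.05, against 0.0702% of all genes called higher and 0.0% called lower, and the median log2 difference was 0.03 beside -0.12 for all genes tested. This median ranged from -0.0089 to 0.24 over the alternatives. The 9 were NR0B1, PRKCB, BCL11B, CAV1, UGT3A2, NPY, GSTM4, JPH4 and PGLYRP2. NR0B1, a nuclear receptor, was at 237.1, 174.7 and 175.8 TPM in EW3. Among the other lines it ran from 0.316 TPM in RDES and 0.651 in MHHES1 to 128.4 in SKES1, so 2 of the 6 lines hardly expressed it. BCL11B, a zinc finger transcription factor, was at 89.1, 84.7 and 71.4 TPM against at most 41.8 elsewhere. NPY, a secreted neuropeptide, was at 80.0, 95.9 and 98.4 TPM, and the other libraries ran from 0.00 to 52.3 TPM. CAV1, the membrane protein caveolin-1, was at 4363, 2702 and 2410 TPM, where replicate 1 was highest and the lowest EW3 library did not exceed the highest of the other 18 (2474 TPM). The 3 lowest genes were PPP1R1A, AURKA and HOXD13. PPP1R1A, a regulator of protein phosphatase, was at 50.1, 53.6 and 47.0 TPM beside 54.6 in A673 and 214.6 in RDES. Of 19 genes known to be repressed by the fusion, 2 were highest (FOXO1 and ITGA11), 2 lowest (TGFBR2 and ZYX) and 0 were called. Their median log2 difference was -1.65, negative under all 20 alternatives run (-1.81 to -0.0675), but its size depended on the fit. It was -0.424 without A673, -0.157 with limma voom, and -0.187 and -0.0675 with single libraries as units. The summed level of the 19 genes overlapped (226.9 to 269.3 TPM in EW3, 202.8 to 1721 TPM elsewhere). ANXA1, the most abundant in EW3, was at 118.4, 138.6 and 137.7 TPM, inside the range of 66.5 to 1288. FOXO1, a transcription factor of insulin signalling, was at 18.3, 18.9 and 16 TPM against at most 7.91 elsewhere.

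Of 25 ETS genes tested, ERG, ETS2 and SPI1 were highest and FLI1 was lowest. ETS2 was at 57.8, 76.0 and 72.7 TPM, above the highest other Ewing library (44 TPM), with a log2 difference of 1.32 (SE 0.54) that did not pass. ETS2 lies on chromosome 21, as ERG does. SPI1 was at 0.28, 0.12 and 0.14 TPM, levels that rest on few reads.

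Tested over all 25644 genes with each line as 1 unit, 18 genes (0.0702%) were called higher in EW3 and 0 (0.0%) lower by edgeR with Benjamini-Hochberg adjustment. Of the 18, 11 passed the filter on low counts through EW3 alone, as did 619 of all genes tested, and could thus only differ upward. The 11 were ERG, SYCE1, GLT1D1, JCHAIN, LINC01682, LINC02607, LOC101928343, MMP7, MOV10L1, SERPINB10 and TMEM132C. At an unadjusted p under 0.05 there were 1258 higher and 833 lower genes. EW3 is a single line in this test and is taken to vary as the other 6 do. An exact permutation of 1 line against 6 cannot give a p under 0.143. The line sums gave 243 higher and 282 lower genes with DESeq2, and 160 and 3 with limma voom. Leaving out any 1 of the 6 other lines brought the edgeR count of higher genes to between 0 and 3, and the adjusted p of NEUROD2, for example, to between 0.0715 and 0.0912. With the osteosarcoma lines added to the fit, 10 of the 18 were called, and SYCE1, KIF26B and DNAH11 were not (edgeR adjusted p = 0.173, 0.448 and 0.619). All 18 genes had EW3 beyond all 18 other libraries. ERG, for which the line was chosen, is one of the 18. Besides the 6 described next they were OLFML1, SERPINB10, LINC02607, LINC01886, GLT1D1, LINC01682, MMP7, TMEM132C, LHFPL4, LOC101928343, JCHAIN and MOV10L1, of which LINC01886 had the highest mean level in EW3, at 12 TPM. MOV10L1, a helicase of the germline piRNA pathway, was at 1.15, 0.206 and 0.153 TPM and was not called without EW3 replicate 1 (edgeR adjusted p = 0.187). The other 17 were still called without it.

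The 6 called genes with the most reads were ERG, SYCE1, NEUROD2, KIF26B, DNAH11 and ISL2. SYCE1 (chromosome 10, 133553899 to 133568291) is a protein of the synaptonemal complex, which pairs chromosomes in meiosis. It was at 74.0, 56.2 and 58.2 TPM in EW3, while the 18 other libraries together held 1 count, in TC71. The ratio of count shares was 20600, with a 95% exact interval from 3700 to 815000 that covers counting error only. U2OS, an osteosarcoma line, reached 19.2 TPM. SYCP1, another synaptonemal gene and a cancer-testis antigen, was also highest in EW3, at 662.0, 507.9 and 504.0 TPM, but it was present in some of the other lines (419.6 in SKES1, 96.9 in RDES, 0.0366 in A673) and was not called.

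NEUROD2 (chromosome 17, 39603768 to 39607920), a basic helix-loop-helix factor of neuronal differentiation, was at 17, 16.2 and 13.1 TPM, against at most 0.103 TPM in the other Ewing libraries and 0.0308 in osteosarcoma lines. Its log2 difference was 8.36 (SE 0.79, edgeR adjusted p = 0.0274). ISL2 (chromosome 15, 76336773 to 76342475), a LIM-homeobox factor of motor and sensory neurons, was at 79.5, 78.6 and 78.1 TPM. The other 18 libraries ran from 1.96 to 6.28 TPM with a median of 4.52, so the gene was present in all lines and highest in EW3 by a log2 difference of 3.92 (SE 0.428, edgeR adjusted p = 0.0409). KIF26B (chromosome 1, 245154985 to 245709432), an atypical kinesin, was at 26.7, 29.1 and 27 TPM against 0.145 to 1.41 TPM (median 0.682). Its log2 difference was 5.05 (SE 0.431, edgeR adjusted p = 0.0248). DNAH11 (chromosome 7, 21543039 to 21901839), a heavy chain of the dynein of cilia, was at 2.41, 2.80 and 2.68 TPM against at most 0.142. Its level was low and its log2 difference 4.60 (SE 0.473, edgeR adjusted p = 0.0349). SAOS2 reached 2.67 TPM of DNAH11, so an osteosarcoma line had as much.

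By a further rule, chosen after values were seen, 32 genes were at 5 TPM or more in all 3 EW3 libraries and under 1 TPM in all 18 others. Setting aside LOC symbols left 29, of which 23 code for protein. The opposite rule, under 1 TPM in all 3 EW3 libraries and 5 TPM or more in all 18 others, held for 2 genes. The first rule asks for expression in EW3 alone, and the opposite rule asks for it in every other Ewing line. The counts are thus not directly comparable. Both rules used the levels, which are given as a description. PCP4, a small calmodulin-binding protein of neurons, missed the first rule because the highest other library had 2.68 TPM. It was at 267.6, 215.8 and 225.0 TPM in EW3. The genes with the highest levels after SYCE1 and ERG were SSTR1, SERPINB2, IDO1, GAS7 and ENPP2. SSTR1, a somatostatin receptor of neuroendocrine cells, was at 22.6, 46.8 and 45.6 TPM, with replicate 1 lowest, against at most 0.677 TPM. SERPINB2, an inhibitor of plasminogen activators, was at 38.6, 39.4 and 35.6 TPM against at most 0.786. IDO1, the enzyme that starts tryptophan breakdown, was at 25.3, 31.4 and 31.3 TPM against at most 0.577.

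GAS7, a protein that shapes the actin skeleton in neurons, was at 22.8, 27.2 and 26 TPM. ENPP2, or autotaxin, which makes lysophosphatidic acid, was at 26.4, 20.4 and 17.3 TPM and reached 51.6 TPM in G292. Among the others, DSCAM, a cell adhesion molecule of neurons, was at 8.92, 6.61 and 6.37 TPM, STOML3, a protein of sensory neurons, at 13.4, 13.4 and 12.8 TPM, and CELF2, a splicing factor, at 12.4, 11.4 and 10.5 TPM. KLHL14 (7.44, 8.08 and 7.43 TPM) and CCDC178 (16.9, 15.8 and 14.6 TPM) were the only pair of these genes within 1 Mb of each other, 164383 bases apart on chromosome 18. DSCAM lay 1349216 bases from ERG. Of the 29 genes, 15 reached 1 TPM and 8 reached 5 TPM in an osteosarcoma line. The 2 microRNA genes MIR4260 and MIR4525 rest on 4 and 7 counts in EW3.

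In the other direction 0 genes were called by edgeR. Over all 25644 genes tested, 774 (3.02%) had all 3 EW3 libraries below all 18 others. Of the genes at 5 TPM or more in every other Ewing line mean, 536 did. Of the 12 of these with the largest log2 difference, 11 were HES4, AHNAK, KIF26A, HOXD13, TIMP1, RFLNB, CXXC5, ITGB5, PGF, EVA1B and CERCAM. They were picked after values were seen and for this difference, so their levels are a description. HES4, a repressor of the Notch pathway, was at 0.297, 0.435 and 0.00 TPM in EW3, and the other 18 libraries ran from 4.60 to 76.5 TPM with a median of 38.8. AHNAK, a very large scaffold protein under the membrane, was at 0.298, 0.279 and 0.296 TPM against 9.95 to 63.7 TPM (median 24.3). The osteosarcoma lines had between 36.8 and 162.8 TPM, so EW3 was lowest of all 13 lines. KIF26A, the paralog of the called gene KIF26B, was at 0.139, 0.368 and 0.293 TPM against 4.46 to 17.1 TPM.

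TIMP1, an inhibitor of matrix metalloproteases, was at 12.5, 12.1 and 11.9 TPM in EW3 against 100.2 to 1604 TPM (median 305.3) elsewhere, and the osteosarcoma lines had at least 188.7 TPM. ITGB5, an integrin subunit that binds vitronectin, was at 1.67, 1.92 and 2.02 TPM against 5.47 to 98.0 TPM. PGF, a growth factor for blood vessels, was at 3.54, 2.75 and 2.86 TPM against 19.4 to 253.5 TPM. CXXC5, a zinc finger protein that acts on Wnt signalling, was at 0.556, 0.587 and 0.467 TPM against 4.80 to 104.8 TPM. In 7 of these 11 genes EW3 was also below all 6 osteosarcoma lines. The log2 differences of the 11 ran from -7.32 (HES4) to -4.65 (CERCAM), and the smallest edgeR adjusted p was 0.105 (KIF26A). Of the other 6 lines' own spread, HES4 in A673 (6.17 TPM), ITGB5 in TC71 (6.10) and KIF26A in MHHES1 (5.27) were the lowest means.

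**Figure D2:**
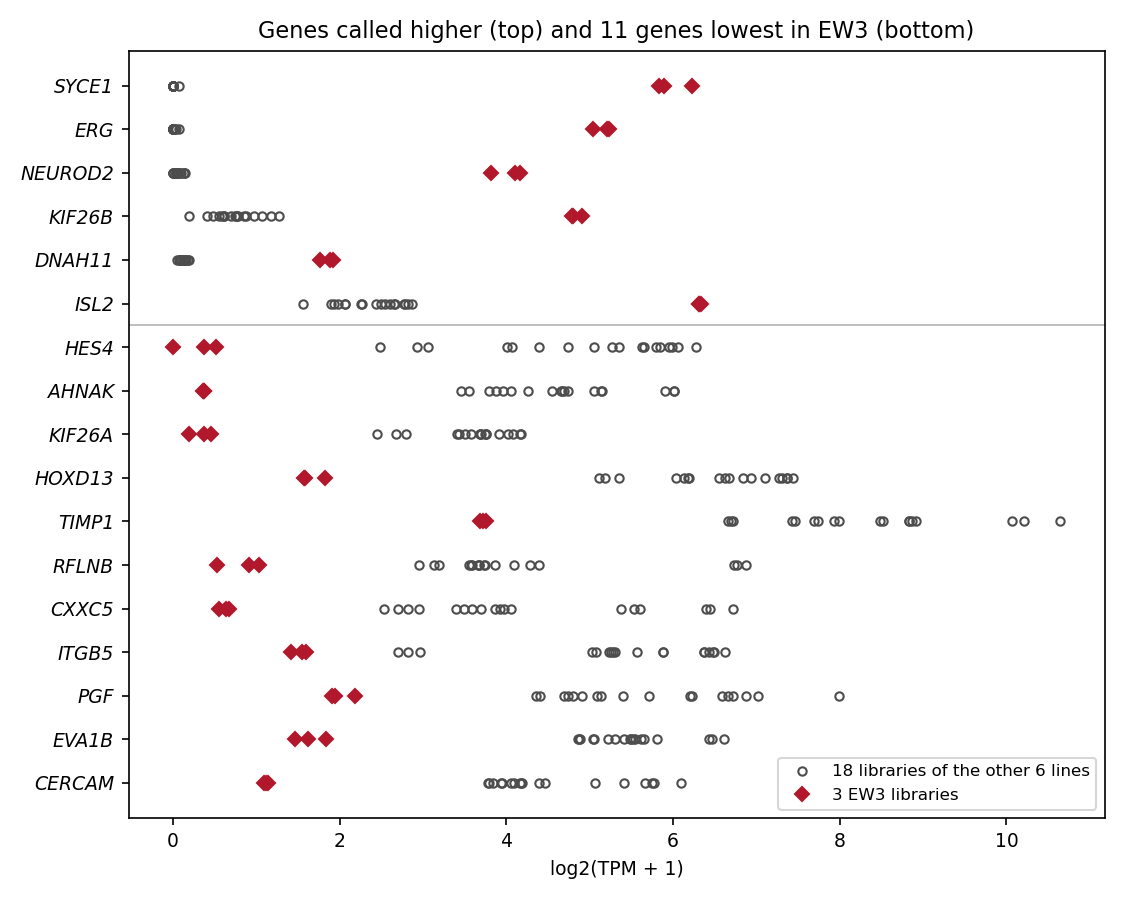
Log2(TPM + 1) of the 6 genes called higher in EW3 that had the most reads (above the line) and of the 11 genes picked as lowest (below it). Diamonds are the 3 EW3 libraries and circles the 18 libraries of the other 6 Ewing lines. In each of these genes the diamonds lie clear of all circles, and ISL2 and KIF26B are present at low level in the other lines.

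Counted without a test, 3894 of the 25644 genes (15.2%) were highest in EW3 and 1449 (5.65%) were lowest. On CPM with TMM scaling in place of TPM the counts were 3241 and 2206. Beyond all 18 libraries, and not only the line means, lay 2600 (10.1%) and 774 (3.02%). The rule itself favours high genes at low levels, since a gene at 0 TPM in another line cannot be lowest in EW3. This held for 1641 of the 7895 genes whose highest line mean was under 1 TPM, 783 of the 6485 between 1 and 10 TPM and 166 of the 11264 above. Among these 7895 genes 1179 were highest and 141 lowest, and among 6485 genes between 1 and 10 TPM, 1314 and 244. Among 2532 genes at 100 TPM or more in a line, 233 (9.2%) were highest and 407 (16.1%) lowest. Over the 11264 genes that reached a mean of 10 TPM in a line, the shares were 12.4% and 9.45%, with a median log2 difference of -0.27. Without EW3 replicate 1 the rule asks for 2 libraries in place of 3, and the shares over these genes were 14.8% and 12.01%. The counts of the gene lists are read beside these shares.

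The HOX genes set position along the body axis and the limb. Of 38 tested, 10 were highest (26.3%) and 5 lowest (13.2%), with 0 called. The counts were 12 and 6 without EW3 replicate 1. On chromosome 2, in the HOXD cluster, 2 of 9 genes were highest, 4 lowest and 3 within. HOXD3 was at 23.7, 20.6 and 17.1 TPM and HOXD4 at 60.5, 46.7 and 38.1 TPM, above all other Ewing libraries (at most 9.28 and 30.2 TPM). HOXD8 and HOXD9 lay within the range of the other lines, as did HOXD1, at 0.0272, 0.0407 and 0 TPM in EW3. HOXD10 was at 4.66, 5.01 and 6.03 TPM against at least 18.3, HOXD11 at 7.16, 7.75 and 7.56 against at least 20.1, and HOXD12 at 0.118, 0.147 and 0.118 against at least 0.231.

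HOXD13, a gene of the distal limb and a known target of the fusion, was at 1.99, 2.55 and 1.98 TPM in EW3. The other 18 libraries ran from 33.4 to 172.4 TPM, with a median of 99.5. Its log2 difference was -5.82 (SE 0.996, edgeR adjusted p = 0.122). It was not called, although no library overlapped. In the HOXC cluster on chromosome 12, 5 of 9 genes were highest and 0 lowest: HOXC4, HOXC5, HOXC9, HOXC10 and HOXC11. HOXC11 was at 62.6, 72.9 and 63.6 TPM against a median of 15.1 and a highest value of 35.5. In the HOXB cluster HOXB2, HOXB3 and HOXB13 were highest and HOXB9 lowest. HOXB2 was at 52.5, 39.6 and 32.1 TPM against at most 12.6. HOXB13 was at 60.03, 79.83 and 78.7 TPM against at most 58.2. HOXB9 was at 0.155, 0.116 and 0.116 TPM against at least 0.769. Of 11 HOXA genes 0 were highest or lowest, and 9 had a mean under 1 TPM in EW3. Without EW3 replicate 1 the HOXD counts were the same (2 and 4 of 9), and the HOXC count of highest genes was 7.

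**Figure D3:**
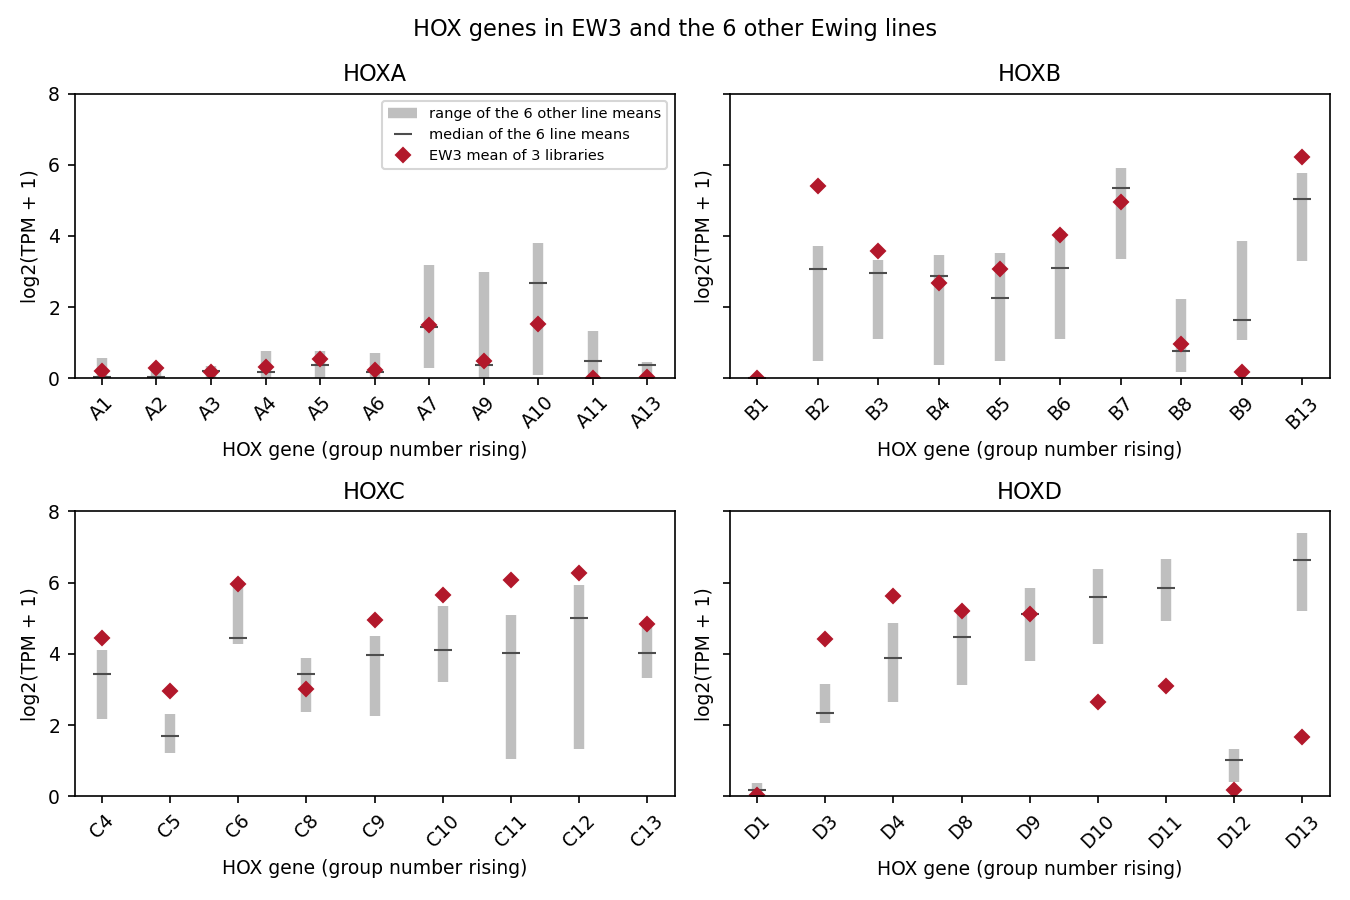
Level of each HOX gene, as log2(TPM + 1), in order of group number within the 4 clusters. Diamonds are EW3 means of 3 libraries, grey bars span the means of the 6 other Ewing lines, and dashes are the median of these 6. EW3 lies above the bars at HOXD3 and HOXD4, inside them at HOXD9, and below them from HOXD10 to HOXD13, and it lies on or above the upper end of the bars for most HOXC genes.

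Among 22 genes of neural and neuroendocrine cells, 8 were highest in EW3 (36.4%) and 2 lowest, with 0 called. The log2 difference was positive in 12 and negative in 10, with a median of 0.17, positive under all 20 alternatives run (0.0383 to 1.68). Their summed level was 2027 to 2148 TPM in EW3 and 1078 to 1744 TPM in the other 18 libraries, so the groups did not overlap. UCHL1, a deubiquitinase of neurons, made up most of the sum, at 1559, 1465 and 1395 TPM against 833.5 to 1407. The light and medium neurofilament genes NEFL (24.8, 30.9 and 28.6 TPM) and NEFM (44.7, 61.2 and 68.0 TPM) were above all other libraries (at most 12.3 and 31.9 TPM). A673 and TC71 also had them, whereas EW24 had means of 0.00 TPM. SYP, a protein of synaptic vesicles, was at 20.2, 20.4 and 21.8 TPM against at most 11.1. NCAM1, an adhesion molecule, was at 15, 12.8 and 11.7 TPM against at most 8.36, and DCX, a microtubule protein of migrating neurons, at 13, 15.8 and 15.1 TPM against at most 7.58. CHGB and DBH were highest at low levels (means of 1.79 and 1.66 TPM). The 2 lowest were NES, an intermediate filament of neural progenitors, at 0.222, 0.334 and 0.379 TPM against 1.34 to 86.2, and L1CAM, a neural adhesion molecule, at 0.151, 0.185 and 0.156 TPM against 1.49 to 45.

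Markers of other cell types were counted next, and some of them were highest in EW3. In bulk RNA, fewer cells of a type and less RNA per cell cannot be told apart. Of 21 endothelial genes 1 was highest and 3 lowest (median log2 difference -1.02), 11 had a mean under 1 TPM in EW3, and the summed level was 128.8 to 139.8 TPM in EW3 and 105.6 to 283.0 TPM elsewhere. PECAM1, a defining marker of blood vessels, was at 0.0533, 0.0484 and 0.127 TPM, and KDR at 0.0826, 0.112 and 0.074 TPM. FLT1, a receptor for vessel growth factors, was the 1 highest gene, at 10.7, 6.30 and 6.76 TPM against at most 2.36. EGFL7, one of the lowest, was still at 49.5, 46.9 and 44.3 TPM. Of 14 blood cell genes 3 were highest and 2 lowest, with a summed level of 109.8 to 157.2 TPM against 55.7 to 134.4. LMO2, a partner of blood transcription factors, was at 79.5, 43 and 49.8 TPM against 1.54 to 22.6. PTPRC, the defining marker of white blood cells, was at 0.345, 0.194 and 0.107 TPM, and GATA1 had too few counts to be tested.

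Of 12 fibroblast and muscle genes 1 was highest and 0 lowest, with a summed level of 174.5 to 203.6 TPM against 80.0 to 673.2. PRRX1, a homeobox gene of limb mesenchyme, was that gene, at 92.2, 75.5 and 68.4 TPM against 0.00 to 41.5. THY1 was at 44.3, 56.5 and 56.4 TPM, within the range, and MYOD1 was listed at 0.00 TPM in all 3 EW3 libraries. Of 9 osteoblast genes 2 were lowest, ALPL and BMP2, and the summed level of 18 to 24 TPM lay below all other Ewing libraries (41.5 to 278.3). ALPL, the alkaline phosphatase of bone, was at 3.09, 3.34 and 3.90 TPM against at least 6.76. Of 14 epithelial genes 3 were highest (EPCAM, KRT19 and ESRP1) and 2 lowest, and the sum was 68.2 to 131.4 TPM against 32.5 to 809.1. EPCAM was at 1.73, 2.22 and 2.55 TPM. ESRP1, a splicing regulator of epithelia, was at 47.9 TPM in EW3 replicate 1 but at 2.61 and 2.65 TPM in the other 2, against at most 0.324 elsewhere. Its log2 difference was 6.98, and 4.03 without replicate 1.

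Of 25 genes of collagens and the extracellular matrix, 0 were highest, 5 lowest (20%) and 20 in between. In the fit 20 had a negative log2 difference, and the median was -2.02, negative under all 20 alternatives run (-2.31 to -0.167, the last with limma voom). None was called. With EW3 replicate 1 left out, 7 were lowest. COL1A1, the main collagen of bone, was at 3.26, 3.11 and 2.41 TPM against 3.51 to 215.4 TPM (median 19.4). COL6A1 was at 2.02, 1.95 and 1.91 TPM against 3.82 to 68.1, and COL6A2 at 3.65, 3.07 and 2.61 TPM against 8.63 to 59.8. COL5A1 was at 8.52, 10.4 and 10.2 TPM against 10.9 to 94.6. ELN, which codes for elastin, was at 21.3, 19.7 and 19.8 TPM, above the lowest other library. FN1, fibronectin, the most abundant of the list, was at 774.5, 489.9 and 461.1 TPM, within a range of 5.96 to 1508, and the summed level of the list overlapped (770.3 to 1139 TPM in EW3, 276.0 to 3868 elsewhere with a median of 950.9).

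**Figure D4:**
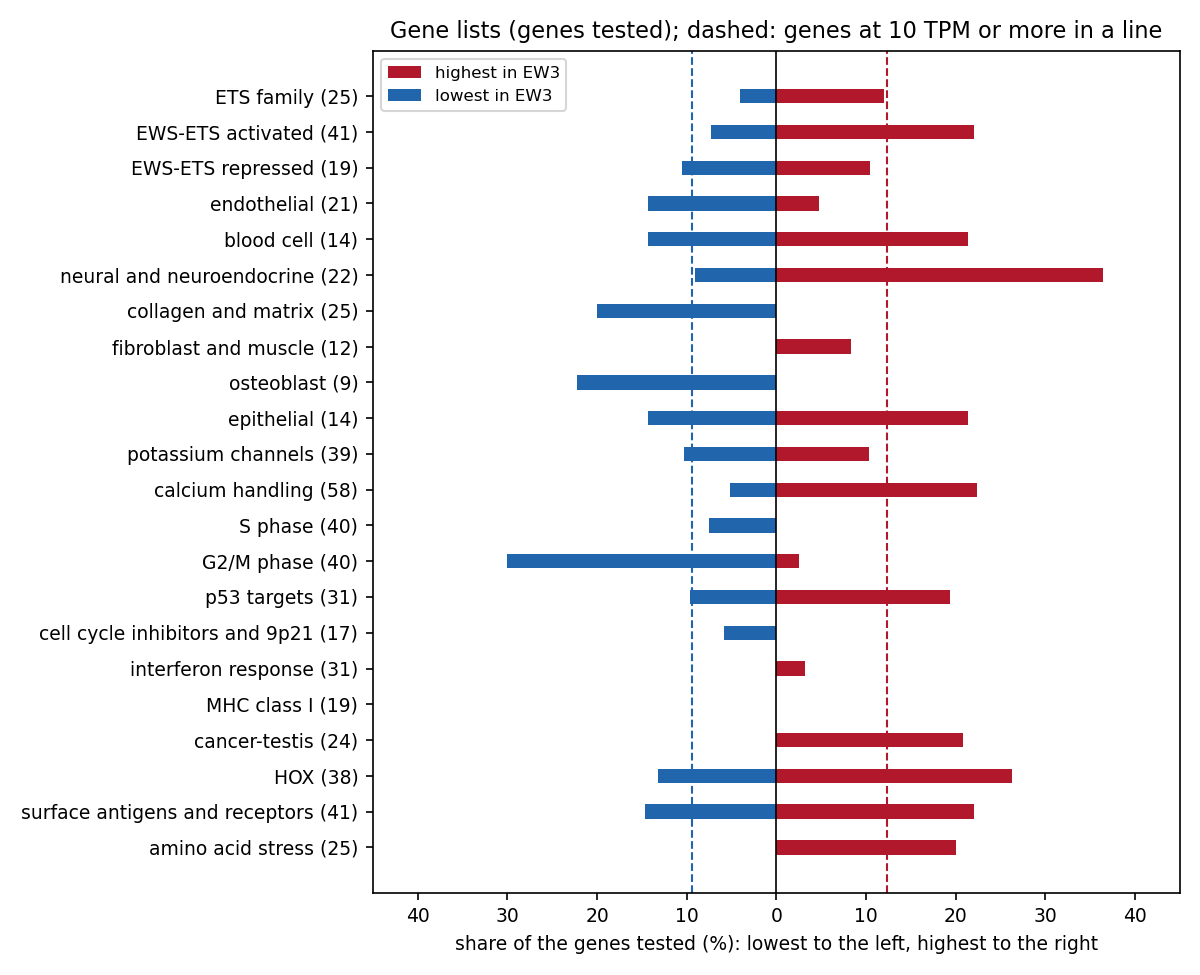
Share of the tested genes of each list that were highest (red, to the right) or lowest (blue, to the left) in EW3. Numbers in brackets are genes tested, and dashed lines are the shares over genes that reached 10 TPM in a line (12.4% and 9.45%). The neural list has the longest bar to the right (36.4%), and the G2/M list (30%) the longest to the left.

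Of 40 G2/M genes 12 were lowest in EW3 (30%) and 1 highest, where genes at 100 TPM or more in a line were lowest in 16.1% and highest in 9.2%, and 33 had a negative log2 difference, with a median of -0.49. This median stayed between -0.52 and -0.389 in all alternatives. Of the 12, 4 lay below all 18 other libraries and 8 did not, and the summed level of the list overlapped (5391 to 5511 TPM in EW3, 4764 to 7545 TPM elsewhere). AURKB, a mitotic kinase, was at 60.1, 65.0 and 61.7 TPM against at least 128.6. CDC20, which activates the anaphase-promoting complex, was at 175.6, 206.7 and 199.1 TPM against at least 221.6. KIF2C, a microtubule depolymerase, was at 85.7, 86.4 and 83.4 TPM against at least 109.3. CENPF, a kinetochore protein coded on chromosome 1, was the gene at the other end (147.6, 146.2 and 143.5 TPM, against a highest library of 151.3). None was called. Of 40 S phase genes 0 were highest and 3 lowest (7.5%, under the 9.45% of genes at 10 TPM), and 39 had a negative log2 difference (median -0.78). The list was lower in EW3 replicate 1 than in replicates 2 and 3. Without replicate 1, 2 were highest and 3 lowest. The median was then -0.39, with 34 of 40 negative, beside -0.24 and 7398 of 11264 for genes at 10 TPM in a line. PCNA, the sliding clamp of DNA replication, was at 258.6 TPM in replicate 1 and 544.2 and 517.4 in the other 2, against 425.9 to 791.1. PRIM1, a subunit of primase, was lower in every EW3 library (58.6, 61.7 and 68.2 TPM against at least 80.4).

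The amino acid stress response, in which ATF4 turns on genes of amino acid synthesis and uptake, was the list, among the 23, in which EW3 replicate 1 lay furthest from replicates 2 and 3. Over 25 genes the median log2 difference between EW3 and the other lines was 1.24, with 22 genes positive and 3 negative, and without EW3 replicate 1 it was -0.39, with 7 positive and 18 negative. TRIB3, a target of ATF4, was at 343.4 TPM in replicate 1 and at 24.3 and 22.4 in replicates 2 and 3, against 9.82 to 51.2 in the other lines. ASNS, asparagine synthetase, was at 595.5, 92.1 and 85.4 TPM against 49.0 to 191.9. CHAC1, which degrades glutathione, was at 207.7, 9.13 and 7.59 TPM against 4.47 to 16. In these 3 genes replicates 2 and 3 lay within the range of the other lines. In 5 genes all 3 EW3 libraries were highest, both with and without replicate 1 counted: ATF5, CEBPB, SLC7A5, SLC3A2 and VLDLR. No gene of the list was lowest with replicate 1 counted, and 4 were (16%) without it. CEBPB, a transcription factor, was at 348.8, 234.3 and 155.0 TPM against 36.5 to 69.8 (log2 difference 2.02, SE 0.24, edgeR adjusted p = 0.0512). SLC7A5, a transporter of large neutral amino acids, was at 743.6, 405.6 and 386.2 TPM against 39.9 to 250.5. ATF5 was at 1319, 211.4 and 219.1 TPM against at most 156.5, and its log2 difference of 2.84 was 1.22 without replicate 1.

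Among ion channel genes, 4 of 39 potassium channel genes were highest and 4 lowest (10.3% each), with a median log2 difference of 0.28. This median ranged from 0.112 to 0.712 over the alternatives. KCNE4, an accessory subunit, was at 246.6, 149.7 and 152.6 TPM against 8.41 to 94.4. KCNE3, of the same family, was at 44.3, 35.5 and 32.3 TPM against at least 63.5. KCNH2, the hERG channel, was at 1.07, 1.46 and 1.13 TPM against at least 2.05. Of 58 genes of calcium handling, 13 were highest (22.4%) and 3 lowest, 0 were called, and the median was -0.07, with a range of -0.128 to 0.411 over the alternatives. Leaving out EW3 replicate 1, 17 were highest and the median was 0.09. ATP2B4, a calcium pump of the plasma membrane coded on chromosome 1, was at 27.3, 36.5 and 35 TPM against 2.54 to 10.1. RYR2, a calcium release channel coded on chromosome 1 too, was at 5.58, 4.51 and 4.47 TPM against at most 2.04. ORAI1, the pore of store-operated calcium entry, was lowest, at 10.6, 15.6 and 17 TPM against 30.7 to 48.2. NFATC1, a factor activated by calcium, was at 1.16, 1.37 and 0.72 TPM against at least 3.06. CALM2, the calmodulin gene with the most transcript, was within the range, at 816.1, 810.9 and 789.0 TPM.

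Of 41 surface antigens and receptors, 9 were highest and 6 lowest (22% and 14.6%), with 0 called. CXCR4, a chemokine receptor linked with cell migration, was at 214.5, 324.3 and 306.4 TPM in EW3. A673 came next with a mean of 62.4 TPM, and the other 5 lines had 1.34 TPM or less. The osteosarcoma lines had at most 2.39 TPM. LINGO1, a neuronal membrane protein, was at 222.3, 253.3 and 227.9 TPM against at most 129.8. ADGRG2, an adhesion receptor, was at 241.7, 189.0 and 180.0 TPM against 1.34 to 106.8. PROM1, the stem cell marker CD133, was at 45.7, 48.2 and 45 TPM against at most 19.1, and NTRK3, a neurotrophin receptor, at 5.72, 5.15 and 4.63 TPM against at most 0.872. KIT, the receptor for stem cell factor, was at 75.4, 77.4 and 72.4 TPM against at most 59.9. On the low side, EPHA2, an ephrin receptor, was at 3.25, 5.55 and 5.17 TPM against at least 13.8, and FGFR4 at 2.64, 6.18 and 5.6 TPM against at least 12.5. NGFR, the low-affinity neurotrophin receptor, was at 17.2, 17.1 and 17.9 TPM against at least 20.3.

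Of 31 p53 target genes 6 were highest and 3 lowest, with a median log2 difference of -0.03. Without EW3 replicate 1, 7 were highest and 4 lowest and the median was -0.21. ZMAT3 was at 14, 14 and 12 TPM against at most 7.67, and PHLDA3 at 35.7, 39.6 and 37.5 TPM against at most 18.5. TP53I3 was lowest, at 2.22, 1.43 and 2.11 TPM against at least 3.68, and so was FAS, the death receptor, at 2.67, 0.702 and 0.659 TPM against at least 3.10. BAX, a mediator of apoptosis, was at 126.2, 185.2 and 182.1 TPM, of which replicates 2 and 3 lay above and replicate 1 below the highest other library (151.6 TPM). Of 17 genes of cell cycle inhibition and 9p21, 0 were highest and 1 lowest, CDK6, a G1 kinase, at 0.0719, 0.051 and 0.0242 TPM against at least 0.0894. The osteosarcoma lines had 13 TPM or more of CDK6. Of 31 interferon response genes 1 was highest (GBP2) and 0 lowest, with a median of -1.07 (-0.80 without EW3 replicate 1). Their summed level was 564.9, 819.4 and 769.5 TPM in EW3, within the range of the other 18 libraries (378 to 7723 TPM, median 573.9). Of 19 genes of MHC class I presentation 0 were either. B2M was at 1778, 1866 and 1896 TPM, within 562.6 to 2393. Of 24 cancer-testis genes 5 were highest, 3 of them the X-linked near copies SSX1, SSX2 and SSX4, whose counts may be divided between copies and are uncertain.

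Genes were also counted by position, which the choice of EW3 did not use, over 11162 genes with a mean of at least 5 TPM. Of these, 11.6% were highest and 9.42% lowest in EW3, and the median log2 difference was -0.26. Chromosome 1 divided into 2 unlike sides at its longest stretch without a gene start. Of 670 genes before it (starts from 14362 to 121184975), 27 were highest (4.03%) and 159 lowest (23.7%), with a median of -0.59. Of 506 genes after it (starts from 143382482 to 248872851), 239 were highest (47.2%) and 7 lowest (1.38%), with a median of 0.44. In windows of 10 Mb the median was under 0 in 12 of 12 windows on the first side and over 0 in 11 of 11 on the second, whereas over all chromosomes 52 of 282 windows were over 0. Summed over the 506 genes, the level was 63380, 64170 and 64290 TPM in EW3 and 34280 to 46110 TPM in the other 18 libraries, which do not overlap. Without EW3 replicate 1 the medians were -0.54 and 0.49.

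Of the genes described as highest, KIF26B, ATP2B4, RYR2, PRRX1, PHLDA3, CENPF, LINC01682 and MIR4260 lie on the second side of chromosome 1, but SYCP1, GSTM4, GBP2 and LINC02607 on the first. Of those described as lowest, ALPL, HES4, EVA1B, CDC20, KIF2C and EPHA2 lie on the first side, but NES on the second. Another low stretch was the end of chromosome 7. Between 150 and 160 Mb, 26 of 37 genes were lowest and 0 highest, with a median of -1.22. On chromosome 2 between 240 and 250 Mb, 14 of 19 genes were lowest, with a median of -1.02. A window at the start of chromosome 21 (6 of 20 lowest) holds near-identical gene copies whose counts are uncertain. Chromosomes 4, 14 and 22 had the next highest shares of highest genes (18.6%, 17.7% and 19.7%). Chromosome 21 as a whole, where ERG lies, had 9 of 138 genes highest and 18 lowest. No DNA copy number was measured in the data used, so its part in these shares was not tested.

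**Figure D5:**
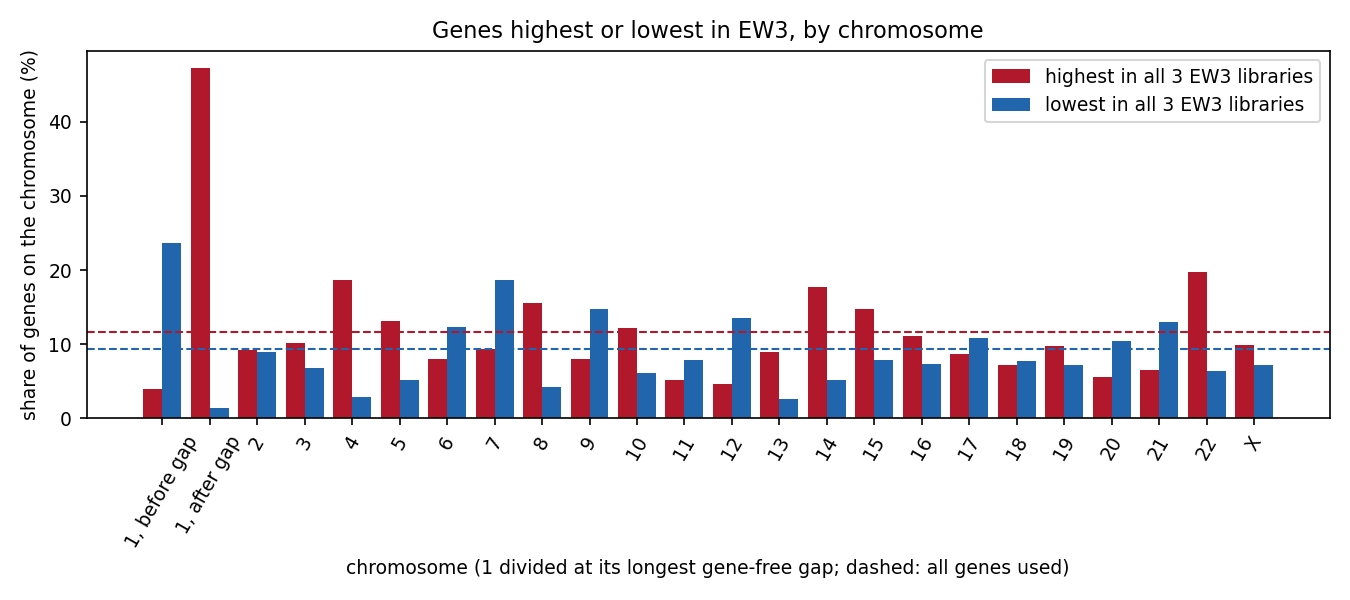
Share of genes on each chromosome that were highest (red) or lowest (blue) in all 3 EW3 libraries, with chromosome 1 divided at its longest gene-free gap. Bars start at 0 and dashed lines are the shares over all 11162 genes. The second side of chromosome 1 has 47.2% of its genes highest, and the first side 23.7% lowest.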

How the data were processed

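Messenger RNA libraries (per the labels, NucleoSpin RNA Plus extraction and TruSeq Stranded mRNA preparation) were quantified by the authors. The submitters' processing notes name fastp 0.19.5, kallisto 0.46.2 and GRCh38.p14. Per the file headers, each deposited table gives an estimated count, TPM and an effective length (another unit, in bases) for 177816 RefSeq transcripts. No unmapped read total was given in the sources used here. Transcripts were assigned to genes by RefSeq accession (169966, or 95.6%, matched). The rest held 1.06% to 1.6% of counts and were left out. Estimated counts were summed per gene and over the 3 libraries of a line, rounded, filtered with filterByExpr and scaled by TMM, and EW3 was tested against 6 lines with edgeR 4.0.16 (quasi-likelihood, robust). Genes with an adjusted p (Benjamini-Hochberg over 25644 genes) under 0.05 were called. Levels are TPM summed per gene. Summing gives the deepest library the most weight. The script was tested on simulated counts.

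The members and the 23 gene lists were chosen with earlier results of these data known. Genes named by rule were ERG, PRKCB, FLI1, EWSR1 and KCNN1, up to 12 called genes each way (mean log2 CPM 1 or more, EW3 beyond all 18 libraries), and up to 4 called or else the 2 most abundant genes per list. All other genes, among them those highest or lowest in EW3, were picked after their values were seen, and some values are not reported here. Alternatives were DESeq2 1.42.0, limma 3.58.1 (voom), RLE scaling, no filter, a length offset, all 13 lines, single libraries with and without a replicate block, and leaving out lines or replicates. Sequences and coordinates are from GRCh38 (GENCODE transcripts and the RefSeq table). Counting error limits values near 0, and the stated interval covers that error only. The replicate numbers in the labels were not used to pair libraries in the main fit. Same-numbered libraries of different lines had a median correlation of deviations of 0.0204 over 63 pairs, with 17 over 0.1. Libraries with different numbers had a median of -0.0145 over 126 pairs, with 14 over 0.1. Whether the numbers mark libraries handled together was not tested.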

Additional observations from a re-analysis of the deposited data

Results flagged for a closer look

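Among the other 6 Ewing lines, 21 genes named above were examined for a line mean that stood apart from the remaining 5, measured on log2(TPM + 1) as its gap over the whole range and compared with Dixon's critical value. Chance marks about 1 in 20 such groups. This was so in 3 genes. TC71 held 0.0173 TPM of SYCE1, which is 1 count, while the other 5 lines were listed at 0. KIF26A in MHHES1 was at 5.27 TPM, below the 10.8 to 16.1 TPM of the other 5 lines. RFLNB in SKES1 was at 110 TPM, above the 7.55 to 18.2 TPM of the other 5.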

How the results depend on the processing

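The counts of called genes depended on the test. Beside 18 higher and 0 lower genes, DESeq2 gave 243 and 282, limma voom 160 and 3, and no filter on low counts 30 higher. With all 13 lines in the fit 1 gene was called lower. With 21 libraries as units, and so only the spread between libraries, 6983 genes were higher and 5484 lower, and 6979 and 5553 with a replicate block. The block moved neither count by over 1.5 times against the same fit without it. Deviations correlated over 0.1 in 17 of 63 same-numbered pairs and in 14 of 126 pairs with different numbers. Leaving out 1 line or replicate in turn gave 0 to 47 higher and 0 to 2 lower calls, and 0 of the 18 genes were called again without EW24, MHHES1, RDES, SKES1 or TC71 (2 without A673). DESeq2 and limma voom each called all 18, but on the same filtered counts. Of the 18 genes, 11 had passed that filter through EW3 alone, so this is not independent support. The fit with 13 lines called 10, and the fits without replicate 1, 2 or 3 of every line 14, 9 and 10. The cause was not tested. Genes highest in EW3 numbered 1401 and lowest 1064 where a line mean of 10 TPM was required, an alternative chosen after seeing the data. Lowest genes numbered 774 beyond all 18 libraries and 2206 on TMM-scaled CPM (highest 3241). No direction reversed among the 21 genes examined under all alternatives. Most of these 21 were picked for a large difference, so a reversal was unlikely from the start and this says little about other genes. TRIB3, ASNS and CHAC1 were not among the 21 and turned from 2.38, 1.33 and 3.14 to -0.31, -0.39 and -0.28 without EW3 replicate 1. The median of all genes moved between -0.13 and 0.08. The medians of the lists of fusion-activated, p53, calcium, HOX and surface genes changed sign under some alternatives, and that of amino acid stress genes turned from 1.24 to -0.39 without EW3 replicate 1 and -0.41 without replicate 1 of every line. Genes near 0 TPM rest on few counts.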
